A study of Homo sapiens with 6 samples.

Results

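The genes described here are ATF4, the transcription factor at the centre of the integrated stress response, and 9 effectors of that response: ATF3, DDIT3, DDIT4, TRIB3, GDF15, SESN2, ASNS, CHAC1 and PPP1R15A. They were chosen by name, with earlier results of these data known, as 10 of the 20824 genes listed in the files. The shares over all genes set beside their counts are therefore a description and no test of the 10 as a set. All 10 were listed in each of the 6 libraries and all 10 passed the filter on low counts. Polyadenylated RNA was sequenced from A549, a human lung adenocarcinoma cell line, in 3 libraries of cells with C19orf12 knocked down and 3 libraries of cells with a scrambled shRNA, which stood for the wild type. All 3 knockdown titles carry one construct name, shC19orf12-1, and the labels give neither the time after transduction nor any stress treatment, and give no culture of origin for the 3 libraries of a group. The p-values therefore measure the spread between these libraries, which may be technical.

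In the integrated stress response, kinases that sense amino acid shortage, unfolded protein in the endoplasmic reticulum, heme shortage or mitochondrial damage, or double-stranded RNA phosphorylate the translation initiation factor eIF2. General translation then slows, while translation of ATF4 mRNA rises, because upstream reading frames in that mRNA are bypassed. ATF4 is thus set mainly at translation, and its protein raises transcription of genes for amino acid supply, feedback and, under lasting stress, cell death. C19orf12, the targeted gene, encodes a membrane protein of mitochondria and the endoplasmic reticulum.

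C19orf12 itself measured 24.2, 26.4 and 25.2 CPM (counts scaled to the size of each library, with TMM factors) in knockdown libraries 1, 2 and 3, against 42.5, 41.1 and 63.3 CPM in scramble libraries 1, 2 and 3. Totals of estimated counts per library lay between 10229890 and 10647587. Scramble replicate 3 stood apart: over the genes tested its log2 CPM correlated at 0.951 and 0.952 with scramble replicates 1 and 2, which correlated at 0.989 with each other and at 0.955 to 0.957 with the knockdown libraries. Genes are not independent replicates. The results for the 10 genes and the counts for each list are therefore also given without that library, and so are values of other named genes that did not pass with all 6. The 8 markers of A549 and of epithelium were all detected, with a summed level of 20238 to 20560.0 CPM in knockdown and 11549.7 to 15139.5 CPM in scramble libraries. All 8 had a positive log2 fold change, and 3, the keratin genes KRT8, KRT18 and KRT19, rose by edgeR with all 6 libraries, while all 8 were called higher without scramble replicate 3, where 25.7% of genes were. EPCAM was low, at 2.36 ± 0.212 CPM in knockdown and 1.12 ± 0.412 CPM in scramble libraries (SD, n = 3 each). Of 12 markers of other cell types, CD3E was listed in no library and the sum lay between 28.6 and 31.8 CPM in knockdown and between 42.2 and 51.1 CPM in scramble libraries, most of it COL1A1. The part of these marker levels in the results below was not tested.

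Stretches of promoters are shown for the effectors whose sequence before the start of transcription holds the letters of a known ATF4 or CREB/ATF element. The first is the core of the C/EBP-ATF response element (CARE), written TGATGNAA, through which ATF4 binds with a C/EBP partner, and the second the cyclic AMP response element (CRE), written TGACGTCA. Both strands were searched over the 250 bases before each start in RefSeq's promoter windows (GRCh38.p14), and the matches do not overlap. The matched letters are in capitals, each sequence runs 5′ to 3′ on the strand of its gene, and positions count back from the base just before the start.
ASNS, chr7:97872409-97872528, minus strand, bases 120 to 1 before the start: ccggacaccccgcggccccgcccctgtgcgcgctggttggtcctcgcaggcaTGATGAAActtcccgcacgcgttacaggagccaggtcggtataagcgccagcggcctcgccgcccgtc
CHAC1, chr15:40953221-40953340, plus strand, bases 250 to 131 before the start: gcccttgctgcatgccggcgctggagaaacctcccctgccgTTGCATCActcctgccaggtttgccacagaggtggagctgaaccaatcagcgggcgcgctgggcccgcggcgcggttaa
ATF3, chr1:212565157-212565276, plus strand, bases 250 to 131 before the start: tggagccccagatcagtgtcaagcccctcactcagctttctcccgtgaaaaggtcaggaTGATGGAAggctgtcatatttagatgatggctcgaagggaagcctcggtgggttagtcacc
PPP1R15A, chr19:48872301-48872420, plus strand, bases 120 to 1 before the start: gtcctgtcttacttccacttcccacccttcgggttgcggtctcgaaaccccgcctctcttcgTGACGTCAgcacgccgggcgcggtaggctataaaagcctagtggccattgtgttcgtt

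The CARE letters lay 68 to 61 bases before the start in ASNS and 191 to 184 in ATF3, in each case in 1 of 2 windows. In CHAC1, which has 1 window, they lay 209 to 202 bases before the start and read on the opposite strand. The CRE letters lay 58 to 51 bases before the start in PPP1R15A. The 10 genes have 16 such windows, since some have more than one start, and 3 of the 16 (18.8%) held the CARE core and 1 the CRE. Over all 35116 windows, 3.14% held the CARE core and 1.65% the CRE, and over the 16724 windows of tested genes the shares were 1.70% and 2.41%. These are matches of letters in a short window, and a gene without them may carry such elements elsewhere.

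In the knockdown libraries 9 of the 10 genes fell by edgeR's quasi-likelihood test with Benjamini-Hochberg adjustment over all genes tested (adjusted p under 0.05), where 5.64% of the 14812 genes tested were called lower and 5.89% higher (11.5% in all). DESeq2 also called 9 of the 10 lower, where it called 5.19% of genes lower and 5.62% higher (10.8% in all). By limma-voom 8 were called lower, where 5.18% of genes were, and DDIT4 missed the threshold (adjusted p = 0.0567). ATF4 mRNA did not pass by any of the 3 tools. The largest falls were in PPP1R15A, GDF15 and DDIT3, which dropped to 27.0%, 31.1% and 37.4% of the scramble mean. For all 10 genes every knockdown library lay below every scramble library, which held for 18.6% of the genes tested, while 18.4% were higher in every knockdown library. The median log2 fold change of the 10 was -1.04, against 0.02 over all genes tested.

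**Figure D1:**
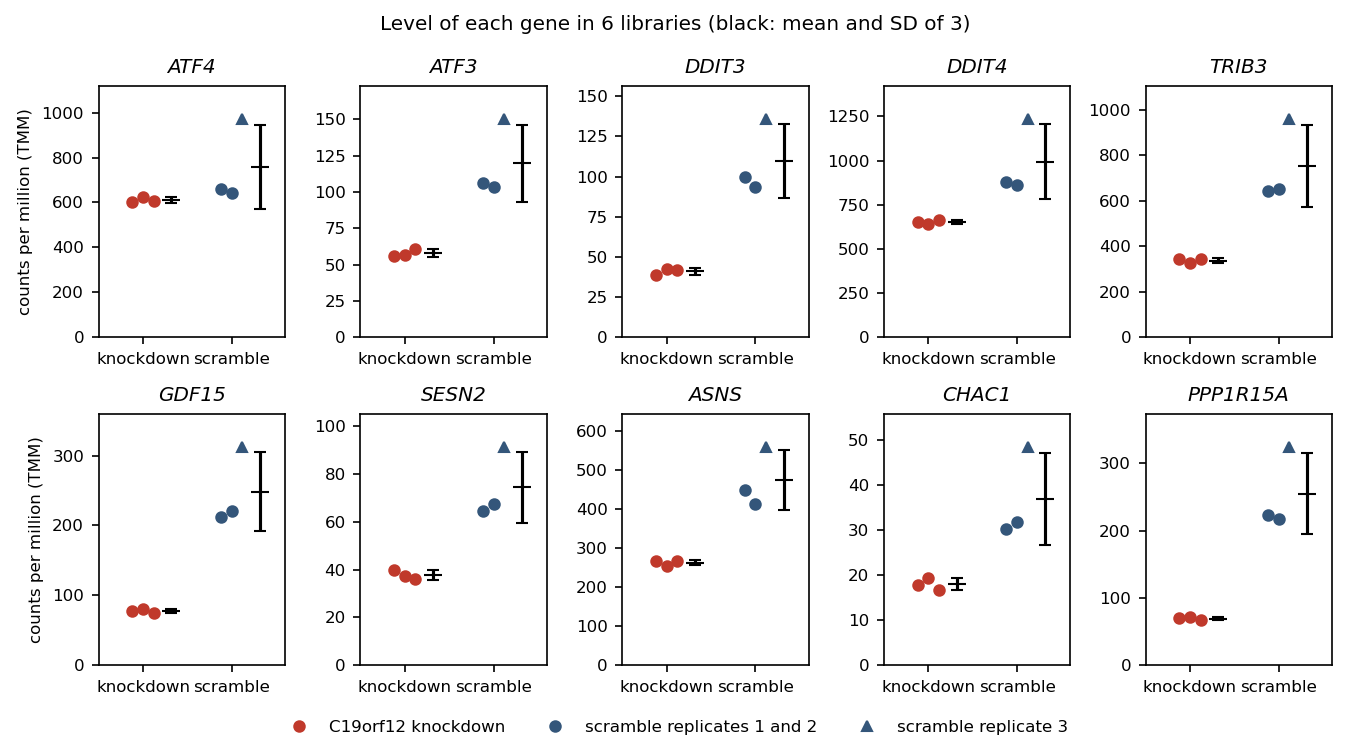
Level of each of the 10 genes in CPM (TMM-scaled, linear axes from 0) in 3 C19orf12 knockdown and 3 scramble libraries; points are libraries, the triangle is scramble replicate 3, and black marks give the mean and SD of 3. The knockdown points lie below the scramble points in every panel; ATF4, whose ratio of means is nearest to 1, was at 603 to 624 CPM against 641 to 973 CPM.

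ATF4, placed upstream of the others in the integrated stress response, was at 603, 624 and 605 CPM in the knockdown libraries. In scramble libraries 1, 2 and 3 it was at 658, 641 and 973 CPM. Whether it drives the others in these cells was not tested. The knockdown values were close to those of scramble replicates 1 and 2, and the distance between the group means came mostly from scramble replicate 3. The log2 fold change was -0.31 (95% interval -0.72 to 0.09, adjusted p = 0.329 by edgeR). Without scramble replicate 3 it was -0.09 (95% interval -0.16 to -0.02, adjusted p = 0.0237), so the call was gained while the knockdown level came to 94.0% of the scramble level. ATF4 has 4 annotated pseudogenes, and reads of near-identical copies can be split among them. The abundance of an mRNA set at translation does not give the amount of ATF4 protein, which was not measured.

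ATF3 and DDIT3 are transcription factors of the same bZIP family that act after ATF4. ATF3, which is induced by many stresses and mostly represses its targets, was at 56.1, 56.7 and 60.7 CPM in knockdown and at 106, 103 and 150.3 CPM in scramble libraries. It fell by 1.05 on the log2 scale (SE 0.18, adjusted p = 0.00625 by edgeR). DDIT3, also called CHOP, promotes cell death when endoplasmic reticulum stress lasts. Its level was 38.6, 42.4 and 42.0 CPM in knockdown and 100.04, 93.47 and 135.97 CPM in scramble libraries, a log2 fold change of -1.42 (SE 0.18, adjusted p = 0.00131 by edgeR). Scramble replicate 3 was the highest library for both factors. DDIT3 overlaps MARS1, a tRNA synthetase gene and itself an ATF4 target, in the annotation. The labels do not say whether strand was used in counting, so reads in the overlap cannot be assigned with certainty, and MARS1 fell too (-0.72, adjusted p = 0.0301 by edgeR).

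PPP1R15A and TRIB3 feed back on the response. PPP1R15A, or GADD34, brings protein phosphatase 1 to eIF2 and so reverses its phosphorylation. It was at 69.2, 71.2 and 66.4 CPM in knockdown and at 223, 217 and 325 CPM in scramble libraries. Its log2 fold change, -1.89 (SE 0.19, adjusted p = 0.000344 by edgeR), was the lowest of the 10 and lower than that of all but 0.277% of the genes tested. TRIB3, a pseudokinase that binds ATF4 and the kinase AKT and limits ATF4 activity, was at 342, 325 and 342 CPM in knockdown and at 641, 654 and 961 CPM in scramble libraries. It fell by 1.16 on the log2 scale (SE 0.18, adjusted p = 0.00349 by edgeR).

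GDF15 encodes a secreted cytokine that rises in cells under mitochondrial or other stress and signals to the hindbrain. It was at 76.6, 80.5 and 74.8 CPM in knockdown and at 212, 220.5 and 313 CPM in scramble libraries, a log2 fold change of -1.69 (SE 0.19, adjusted p = 0.000571 by edgeR). The groups were far apart for GDF15, and scramble replicate 3 was its highest library.

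DDIT4 and SESN2 both restrain the growth kinase complex mTORC1. DDIT4, or REDD1, acts through the TSC complex and also answers to hypoxia and glucocorticoids. It was at 650.0, 641 and 666 CPM in knockdown and at 881, 864 and 1237 CPM in scramble libraries, and its call was the weakest of the 9 (-0.61, SE 0.17, adjusted p = 0.0460 by edgeR). SESN2, a leucine sensor of the sestrin family that is also a p53 target, was at 39.9, 37.5 and 35.9 CPM in knockdown and at 64.7, 67.3 and 91.6 CPM in scramble libraries (-0.98, SE 0.18, adjusted p = 0.00811 by edgeR). DDIT4 no longer passed when scramble replicate 1 was left out (-0.70, adjusted p = 0.0540 by edgeR) or when any 1 of the knockdown libraries was (adjusted p = 0.176 to 0.193).

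ASNS and CHAC1 act on amino acids and glutathione. ASNS, asparagine synthetase, makes asparagine from aspartate and glutamine. It was at 266, 254 and 266 CPM in knockdown and at 448, 412 and 559.8 CPM in scramble libraries (-0.85, SE 0.16, adjusted p = 0.00780 by edgeR). ASNS has 4 annotated pseudogenes. CHAC1, an enzyme that degrades glutathione, was the least abundant of the 10 by count, at 17.8, 19.4 and 16.7 CPM in knockdown and at 30.2, 31.8 and 48.6 CPM in scramble libraries (-1.04, SE 0.21, adjusted p = 0.0137 by edgeR). Both genes carry the CARE letters in the window shown above, and so does ATF3, but the 3 did not have the lowest fold changes of the 10. The groups did not overlap for either gene.

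**Figure D2:**
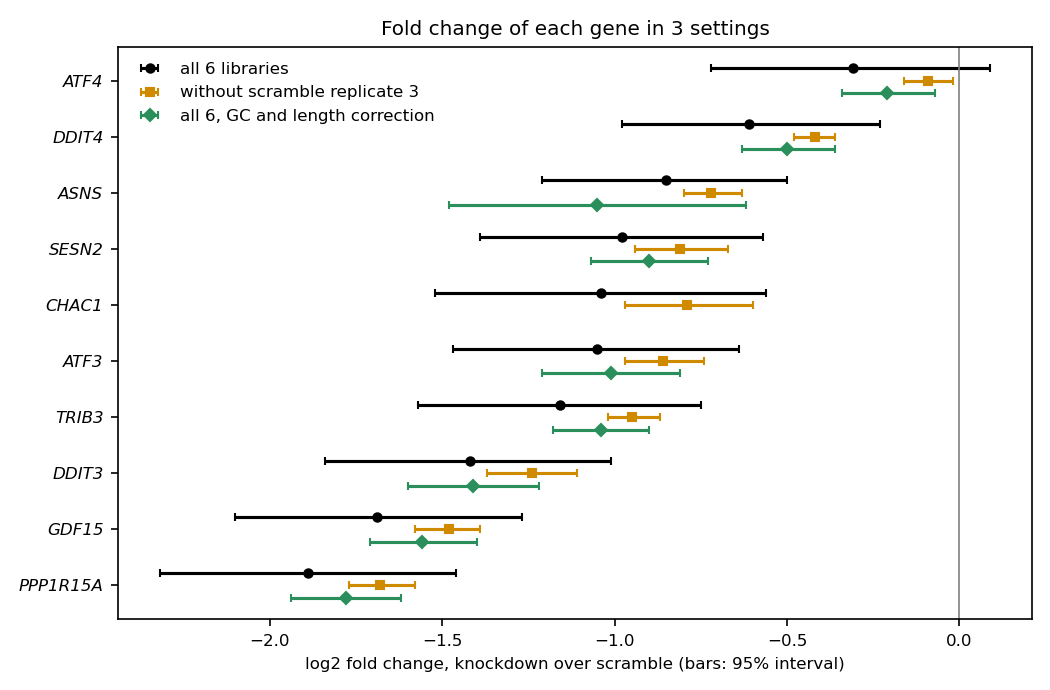
Log2 fold change of each gene, knockdown over scramble, with 95% intervals, from all 6 libraries, without scramble replicate 3, and from all 6 with a correction for GC content and length (no value for CHAC1). All points lie below 0, from -0.31 for ATF4 to -1.89 for PPP1R15A with all 6 libraries.

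The order of the fold changes was PPP1R15A, GDF15, DDIT3, TRIB3, ATF3, CHAC1, SESN2, ASNS, DDIT4 and ATF4 with all 6 libraries. The 95% intervals of neighbours in this order overlapped throughout, and the interval of PPP1R15A (-2.32 to -1.46) lay wholly below those of SESN2 (-1.39 to -0.57), ASNS (-1.21 to -0.50), DDIT4 (-0.98 to -0.23) and ATF4. Without scramble replicate 3 all 10 genes were called lower, where 23.8% of the 15029 genes tested were (49.5% in either direction). The log2 fold changes were smaller in size there, at -1.68 for PPP1R15A, -1.48 for GDF15, -1.24 for DDIT3, -0.95 for TRIB3, -0.86 for ATF3, -0.81 for SESN2, -0.79 for CHAC1, -0.72 for ASNS and -0.42 for DDIT4. The largest adjusted p among these 9 was 1.42e-07, for CHAC1, by edgeR. These tests stand against a replicate coefficient of variation of 2.97%, which was 18.9% with all 6 libraries.

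Leaving out a knockdown library took away calls, while the median log2 fold change of the 10 lay between -1.07 and -1.03. Without knockdown replicate 1, 2 or 3 the number of the 10 genes called lower was 6, 5 and 5, where 1.95%, 1.84% and 1.79% of all genes tested were. ATF3, DDIT3, TRIB3, GDF15 and PPP1R15A stayed called under each of the 15 alternatives. ASNS (adjusted p = 0.0570 to 0.0658) and CHAC1 (0.0614 to 0.0883) lost their calls without any 1 of the knockdown libraries, and SESN2 without knockdown replicate 2 or 3 (0.0603 and 0.0672).

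Every one of the 10 genes was higher in scramble replicate 3 than in scramble replicates 1 and 2, as were 51.0% of the genes tested. The shift ran from 0.38 on the log2 scale for ASNS to 0.65 for CHAC1, against a median of 0.14 over all genes tested. That library differed from the other scramble libraries with GC content: over 10 groups of genes ordered by GC content, the median shift ran from -1.03 in the lowest to 0.51 in the highest. For 8 of the 9 genes with a GC value the shift was 0.47 to 0.58, where the medians of genes of like GC content were 0.33 to 0.51. ASNS, at 43.9% GC, was the exception, with 0.38 against -0.64. The part of this shift in the fold changes is given by the values without the library. With a correction for GC content and length, all 9 genes with a GC value were called lower (where 19% of the 14231 genes were, and 34.4% in either direction), ATF4 among them at -0.21 (adjusted p = 0.0297 by edgeR).

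**Figure D3:**
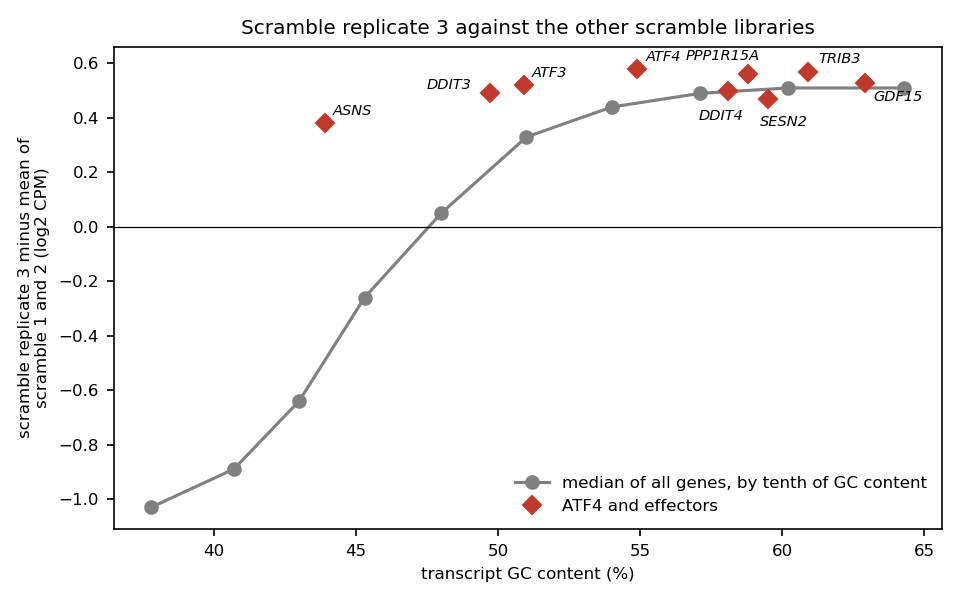
Shift of scramble replicate 3 (log2 CPM, against the average of the other scramble libraries) by transcript GC content in percent; the line joins medians of all genes tested in 10 groups of GC content, and diamonds are 9 of the 10 genes. Diamonds lie between 0.38 and 0.58, and ASNS at 43.9% GC lies far above the line.

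Levels per length were compared with the deposited FPKM. In knockdown libraries ATF4 was the most abundant transcript of the 10, at 417 ± 7.92 FPKM, with DDIT4 at 366 ± 8.003 FPKM (SD, n = 3). In scramble libraries DDIT4 came first, at 577 ± 94.5 FPKM, and ATF4 second, at 535 ± 106 FPKM (SD, n = 3). Within scramble libraries 1, 2 and 3 DDIT4 stood at 110.1%, 111% and 104% of the ATF4 FPKM. TRIB3, ASNS, GDF15, DDIT3, PPP1R15A, ATF3, CHAC1 and SESN2 followed in that order in both groups, from 146 ± 4.96 FPKM for TRIB3 to 10.3 ± 0.539 FPKM for SESN2 in knockdown and from 343 ± 66.2 to 21.2 ± 3.21 FPKM in scramble libraries. PPP1R15A and ATF3 were apart in scramble libraries, at 107 ± 20.3 and 60.5 ± 10.4 FPKM. In knockdown libraries they averaged 28.1 ± 0.928 and 27.9 ± 1.29 FPKM, and their order changed between libraries. CHAC1 (11.2 ± 0.821 FPKM in knockdown and 23.8 ± 5.43 FPKM in scramble libraries) lay above SESN2 in every library. The values ran from 11.1 against 10.9 FPKM in knockdown library 1 to 30.0 against 24.8 FPKM in scramble library 3.

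Within a library, the ratio of each effector to ATF4 does not depend on how libraries are scaled. PPP1R15A stood at 6.86%, 6.79% and 6.53% of the ATF4 FPKM in knockdown and at 20.3%, 20.2% and 19.9% in scramble libraries 1, 2 and 3. GDF15 stood at 15.1%, 15.3% and 14.7% in knockdown and at 38.4%, 40.9% and 38.3% in scramble libraries. In these ratios scramble replicate 3 lay beside scramble replicates 1 and 2.

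DDIT3 was at 9.97%, 10.4% and 10.5% of ATF4 in knockdown and at 23.6%, 22.6% and 21.6% in scramble libraries. TRIB3 averaged 34.9% ± 1.82 in knockdown and 64.1% ± 1.69 in scramble libraries (SD, n = 3 each). DDIT4 differed least against ATF4, at 84.3% to 90.3% in knockdown and 104% to 111% in scramble libraries. All 9 ratios were lower in every knockdown library than in every scramble library, which held for 8.72% of the other 14811 genes tested. The differences were -0.31 for DDIT4, -0.56 for ASNS, -0.68 for SESN2, -0.73 for CHAC1, -0.76 for ATF3, -0.88 for TRIB3, -1.13 for DDIT3, -1.38 for GDF15 and -1.58 for PPP1R15A on the log2 scale, and without scramble replicate 3 they ran from -0.33 for DDIT4 to -1.59 for PPP1R15A. A 2-sided exact permutation test gave p = 0.100 for each of the 9, also after Benjamini-Hochberg adjustment, which is the smallest p that 3 against 3 libraries can give.

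**Figure D4:**
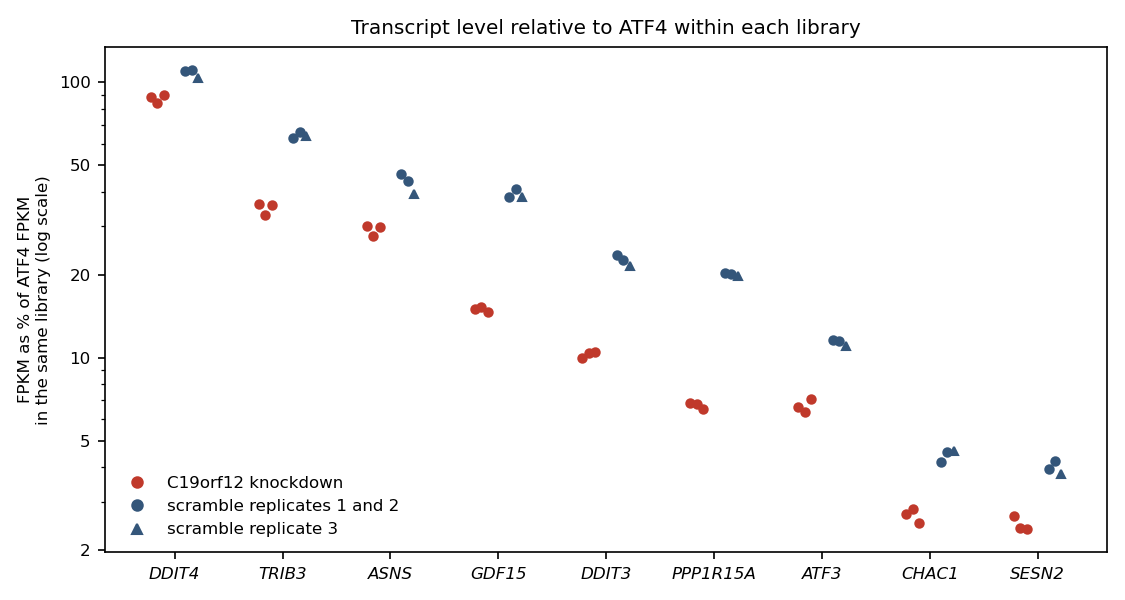
FPKM of each effector as a percentage of the ATF4 FPKM of the same library (log axis), in 3 knockdown and 3 scramble libraries; points are libraries and the triangle is scramble replicate 3. Knockdown points lie below scramble points for all 9 effectors, by the most for PPP1R15A, at 6.53% to 6.86% against 19.9% to 20.3%.

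Upstream of ATF4, calls among the eIF2 kinases and the subunits of eIF2 depended on how scramble replicate 3 was treated. Of 9 genes for eIF2 kinases and their regulators none was called in either direction by edgeR, DESeq2 or limma-voom with equal weights, and 2 had an unadjusted p under 0.05 by edgeR. Without scramble replicate 3, where 23.8% of genes tested were called lower and 25.7% higher, 2 of the 9 were called lower and 3 higher, as many as by limma-voom with library quality weights on all 6. With the GC and length correction 1 (11.1%) was called higher, EIF2AK4 (adjusted p = 0.0265 by edgeR). With that correction 19% of all genes tested were called lower and 15.3% higher. EIF2AK1, the heme-regulated kinase HRI that also takes the mitochondrial signal, averaged 279.9 ± 2.37 CPM in knockdown and 216 ± 18.2 CPM in scramble libraries (0.37, adjusted p = 0.125, and 0.44, adjusted p = 2.09e-09, without scramble replicate 3, by edgeR). DELE1, which carries that signal from mitochondria to HRI, averaged 79.1 ± 6.65 CPM in knockdown and 87.9 ± 15.1 CPM in scramble libraries. EIF2AK3, the endoplasmic reticulum kinase PERK (0.17, adjusted p = 0.781), EIF2AK4, the amino acid sensor GCN2 (0.36, adjusted p = 0.194), and EIF2AK2, the RNA-activated kinase PKR (0.05, adjusted p = 0.935), likewise missed the threshold by edgeR with all 6 libraries. Leaving out scramble replicate 3 put them at -0.14 (adjusted p = 0.147), 0.27 (adjusted p = 0.00206) and -0.24 (adjusted p = 0.00322) for EIF2AK3, EIF2AK4 and EIF2AK2 by edgeR. Of 12 subunits of eIF2, its exchange factor eIF2B and its phosphatases none was called by edgeR, DESeq2 or limma-voom with equal weights, and 2 had an unadjusted p under 0.05 by edgeR. Without scramble replicate 3, and also with quality weights, 2 of the 12 were called lower and 6 higher, and with the GC and length correction 1 lower and 3 higher. PPP1R15A, described above, is not counted in this list. Kinase activity was not measured.

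Genes downstream of ATF4 were lower in good part. The 3 lists were amino acid synthesis and transport, tRNA synthetases, and other targets of ATF4 or CHOP, and together they hold 46 genes, 45 of them tested. Of these 20 fell and 1 rose (median log2 fold change -0.51), where 5.64% of all genes tested were called lower. Without scramble replicate 3, 36 fell and 7 rose, where 23.8% and 25.7% of all genes did. Without any 1 of the knockdown libraries only 4 or 5 of the 45 were called lower and 1 higher, where 1.79% to 1.95% of all genes were called lower.

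In the list of amino acid synthesis and transport 7 of 19 fell (36.8%) and 1 rose (5.26%), where 5.64% and 5.89% of all genes tested did. These counts were 13 (68.4%) and 5 (26.3%) without scramble replicate 3, where 23.8% and 25.7% of all genes were called. Without any 1 of the knockdown libraries the counts were 1 and 1, where 1.79% to 1.95% of all genes were called lower. CBS, which makes cystathionine from homocysteine, averaged 61.5 ± 3.50 CPM in knockdown and 165 ± 38.3 CPM in scramble libraries. PHGDH, the first enzyme of serine synthesis (-0.88), and the neutral amino acid transporter SLC1A4 (-0.84) fell. CTH, which makes cysteine from cystathionine, was the one that rose, at 78.0, 77.9 and 82.4 CPM in knockdown and 35.4, 35.3 and 33.7 CPM in scramble libraries (1.19, adjusted p = 0.000960 by edgeR). The transporter genes SLC7A5 (0.56, adjusted p = 0.0590) and SLC3A2 (-0.12, adjusted p = 0.725), whose products form one exchanger, did not pass by edgeR. Both were called higher when scramble replicate 3 was left out, SLC7A5 at 0.76 (adjusted p = 5.59e-17) and SLC3A2 at 0.09 (adjusted p = 0.00826) by edgeR.

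Of 13 genes for tRNA synthetases and the tRNA exporter XPOT, 5 fell (38.5%), where 5.64% of all genes tested did. Without scramble replicate 3, 12 fell (92.3%) and 1 rose (7.69%), where 23.8% and 25.7% of all genes did. Without any 1 of the knockdown libraries 0 fell by edgeR, where 1.79% to 1.95% of all genes did. SARS1 (-0.83), YARS1 (-0.74), WARS1 (-0.73) and MARS1 (-0.72), which charge the tRNAs of serine, tyrosine, tryptophan and methionine, fell, and IARS1 (-0.28, adjusted p = 0.506) and GARS1 (-0.44, adjusted p = 0.0665) did not pass by edgeR. IARS1 was at -0.52 (adjusted p = 3.07e-12) and GARS1 at -0.38 (adjusted p = 5.50e-09) by edgeR without scramble replicate 3.

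Of 13 other targets tested 8 fell (61.5%), where 5.64% of all genes tested did. Without scramble replicate 3, 11 (84.6%) fell and 1 (7.69%) rose, where 23.8% and 25.7% of all genes did. Without a knockdown library 3 or 4 fell, where 1.79% to 1.95% of all genes did. NUPR1, a small stress-induced chromatin protein, was at 6.10, 5.59 and 6.06 CPM in knockdown and 14.8, 13.2 and 19.8 CPM in scramble libraries (-1.42, adjusted p = 0.00213 by edgeR). The hormone gene ADM2 (-1.30), the autophagy gene MAP1LC3B (-0.87) and the death receptor gene TNFRSF10B (-0.82) fell, while VEGFA (-0.31, adjusted p = 0.289) and the oxidase gene ERO1A (0.51, adjusted p = 0.215) did not pass by edgeR. VEGFA was at -0.15 (adjusted p = 0.0107) and ERO1A at 0.26 (adjusted p = 6.30e-05) by edgeR without scramble replicate 3. FGF21, a hormone that ATF4 induces in liver and muscle, was below the filter.

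**Figure D5:**
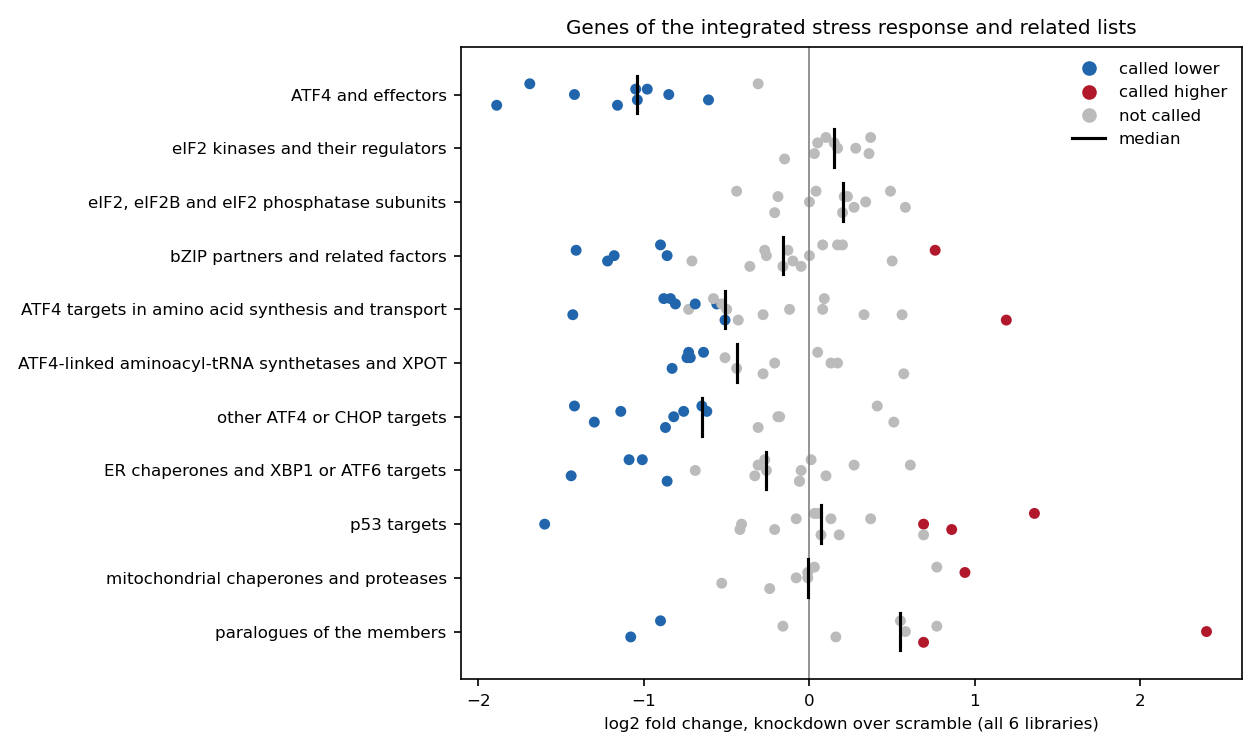
Log2 fold change, knockdown over scramble with all 6 libraries, of ATF4 and its effectors and of 10 lists of related genes; points are genes, blue called lower, red called higher and grey not called, and black bars are medians. The median lay at -1.04 for ATF4 and effectors, between -0.65 and -0.44 in the 3 lists of ATF4 targets, and at 0.15 and 0.20 in the lists of eIF2 kinases and eIF2 subunits.

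Partners and neighbours of ATF4 among the transcription factors were mixed. Of 19 bZIP genes 5 fell (26.3%) and 1 rose (5.26%), where 5.64% and 5.89% of all genes tested did. The counts were 10 (52.6%) and 4 (21.1%) without scramble replicate 3, where 23.8% and 25.7% of all genes were called. Without any 1 of the knockdown libraries the counts were 3 and 0 by edgeR, where 1.79% to 1.95% of all genes were called lower. JUN was at 37.1, 34.2 and 34.3 CPM in knockdown and 70.8, 76.1 and 99.7 CPM in scramble libraries (-1.22, adjusted p = 0.00243 by edgeR), and MAFF (-1.41), FOSL1 (-1.18) and ATF5 (-0.90), which like ATF4 is set at translation, fell. FOS, named after its values were seen, rose (0.76, adjusted p = 0.0355 by edgeR). FOS lost this call without scramble replicate 1 or 2 (adjusted p = 0.102 and 0.120) and without any 1 of the knockdown libraries (adjusted p = 0.132 to 0.141). CEBPG, a C/EBP partner of ATF4, was at -0.71 (adjusted p = 0.0626) and CEBPB at -0.13 (adjusted p = 0.772) by edgeR. CEBPG was at -0.92 (adjusted p = 2.63e-14) and CEBPB at 0.10 (adjusted p = 0.363) by edgeR without scramble replicate 3.

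Other stress branches share some of these effectors. Among chaperones of the endoplasmic reticulum and genes driven by XBP1 or ATF6, 4 of the 16 tested fell, against 8 (with 2 called higher) without scramble replicate 3 and 3 without any 1 of the knockdown libraries. The 4 that fell with all 6 libraries included the chaperone gene HSPA5 (979 ± 8.29 CPM in knockdown and 1976 ± 112 CPM in scramble libraries). The others were the chaperone gene HYOU1 (-1.09), the stress sensor ERN1 (-1.44), also called IRE1, and XBP1 (-0.86). HSP90B1 (0.27, adjusted p = 0.571) and CALR (0.61, adjusted p = 0.0585) did not pass by edgeR. HSP90B1 was at -0.00 (adjusted p = 0.971) and CALR at 0.81 (adjusted p = 9.47e-14) by edgeR without scramble replicate 3.

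Of 15 p53 targets 3 rose and 1 fell. Leaving out scramble replicate 3 gave 6 (40.0%) and 5 (33.3%), where 25.7% and 23.8% of all genes were called. Without a knockdown library 0 or 1 was called higher and 1 lower by edgeR, where 1.79% to 1.95% of all genes were called lower. GADD45A, also induced by ATF4, fell (-1.60, adjusted p = 0.000368), and FAS (1.36), CCNG1 (0.86) and SESN1 (0.69, adjusted p = 0.0497) rose by edgeR. The SESN1 call was lost under most alternatives, among them RLE scaling (adjusted p = 0.0511), DESeq2 (adjusted p = 0.116) and each removal of a library other than scramble replicate 3 (adjusted p = 0.0835 to 0.253). CDKN1A (0.03, adjusted p = 0.945) and MDM2 (0.13, adjusted p = 0.820), the best known p53 targets, did not pass. CDKN1A was at 0.24 (adjusted p = 0.000119) and MDM2 at -0.16 (adjusted p = 0.0149) by edgeR without scramble replicate 3. Of 8 mitochondrial chaperones and proteases 1 rose (12.5%), where 5.89% of all genes tested did. It was HSPE1 (0.94, adjusted p = 0.00290 by edgeR), and HSPA9 (-0.01) and HSPD1 (0.77, adjusted p = 0.0810) did not pass. With scramble replicate 3 left out, 3 of the 8 were called higher and 3 lower (37.5% each, against 25.7% and 23.8% of all genes). HSPD1 was then at 0.50 (adjusted p = 1.32e-11) and HSPA9 at -0.19 (adjusted p = 2.67e-05) by edgeR.

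Of 9 tested paralogues of the 10 genes 2 fell and 2 rose (22.2% each), where 5.64% and 5.89% of all genes tested did. Their median log2 fold change was 0.55, and 1 more paralogue, TRIB2, was below the filter. Without scramble replicate 3, 2 (22.2%) were called lower and 5 (55.6%) higher, where 23.8% and 25.7% of all genes were. The count called higher was 1 with RLE or upper-quartile scaling, DESeq2 or limma-voom. Without a knockdown library 0 or 1 was called lower and 1 higher by edgeR, where 1.79% to 1.95% of all genes were called lower. PPP1R15B is the constitutive counterpart of PPP1R15A in dephosphorylating eIF2. It was at 195, 183 and 191 CPM in knockdown and 142, 147 and 91.9 CPM in scramble libraries. Its log2 fold change was 0.58 (adjusted p = 0.0937), and 0.39 (adjusted p = 1.61e-07) without scramble replicate 3, by edgeR. The FPKM ratio of PPP1R15A to PPP1R15B was 0.787, 0.863 and 0.771 in knockdown and 3.48, 3.27 and 7.84 in scramble libraries. The inducible form was thus the more abundant one in every scramble library and the less abundant one in every knockdown library. On the log2 scale the ratio differed by -2.47, and by -2.06 without scramble replicate 3. In that library PPP1R15A (58.8% GC) shifted by 0.56 and PPP1R15B (43.4% GC) by -0.65. The medians of genes of like GC content were 0.51 and -0.64.

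DDIT4L, the relative of DDIT4, was low and rose, at 7.70, 7.79 and 7.05 CPM in knockdown and 2.14, 0.928 and 1.16 CPM in scramble libraries (2.40, adjusted p = 0.000895 by edgeR). SESN3 (0.55, adjusted p = 0.180) and CHAC2 (0.77, adjusted p = 0.112) did not pass by edgeR with all 6 libraries and did without scramble replicate 3 (adjusted p = 0.0469 and 0.0314). TRIB1 fell along with TRIB3, at 20.8, 18.9 and 18.2 CPM in knockdown and 36.1, 35.2 and 51.4 CPM in scramble libraries (-1.08, adjusted p = 0.00714 by edgeR), and the FPKM ratio of TRIB3 to TRIB1 overlapped between the groups, at 24.5 to 29.4 in knockdown and 25.4 to 28.8 in scramble libraries. By a 2-sided exact permutation test the TRIB3 to TRIB1 ratio had p = 0.700 and the PPP1R15A to PPP1R15B ratio p = 0.100, the smallest possible (0.112 after adjustment over the 9 pairs compared).

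The mean transcript length that the files give per gene changes when isoforms change in share. For TRIB3 it was 2252, 2267 and 2258 bases in knockdown and 2230, 2216 and 2220 bases in scramble libraries, without overlap, which was so for 12.7% of the 7518 tested genes whose length varied. For ATF3 it was 2012 to 2052 bases in knockdown and 2005 to 2015 bases in scramble libraries, with overlap, and for DDIT3 942 to 971 and 946 to 948 bases, with overlap. It overlapped between the groups for ATF4 and ASNS too, and was the same in every library for DDIT4, GDF15, SESN2, CHAC1 and PPP1R15A.

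The 5 genes outside the lists whose profile over the 6 libraries lay nearest to the mean profile of the 10, of 10147 candidates with a mean of at least 10 CPM, were STRA6, FOXA2, FKBP10, OLFM2 and TXNDC12. Their distances were 0.0396 to 0.0922 on the log2 scale, against a median of 1.52 over the candidates, and their log2 fold changes -1.08 to -1.14. Small distances and like fold changes follow from how the 5 were picked. In libraries made from whole cultures, a lower level in every cell and a loss of expression in some cells cannot be told apart.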

How the data were processed

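The authors deposited 1 RSEM gene table per library. Each holds expected counts (estimated counts, which need not be whole), FPKM scaled by the authors for length and depth, and a mean transcript length, per the file headers. The build was hg19 and the tools BWA, Bowtie2 and RSEM, per the submitters' processing notes, with no version or role in the sources used here. No gene is listed at 0, and a gene missing from a library's table was taken as 0.

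Entrez IDs were matched to symbols with RefSeq's GRCh38.p14 table (20727 of 20824). Counts were rounded and tested in edgeR 4.0.16 (R 4.3.3) with filterByExpr (minimum count 10, minimum total 15), TMM, glmQLFit and glmQLFTest without covariates, knockdown over scramble. SE is the log2 fold change divided by the root of F, and intervals are at 95%. Ratios of FPKM were tested with SciPy 1.17.1.

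Alternatives were RLE and upper-quartile scaling, other filters, a replicate block, each library left out, DESeq2 1.42.0, limma 3.58.1 voom with and without quality weights and, added after seeing the data, a GC and length correction (spline, 5 degrees of freedom). The procedure was tested on simulated data. The 10 genes, the lists and the rule for named genes were chosen with earlier results of these data known: the 10, the kinase, eIF2 and paralogue lists, up to 4 called genes with the smallest p and 2 abundant uncalled genes of each other list, and 5 genes of nearest profile.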

Additional observations from a re-analysis of the deposited data

How the results depend on the processing

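The log2 fold changes of the 10 genes kept their sign under all 15 alternatives (CHAC1 has no GC value and so no GC correction), and of 149 such values 133 stayed on the same side of the threshold, 14 lost the call and 2 gained it (ATF4). The count of the 10 called lower was 9, between 5 and 10 when 1 library was left out, and their median log2 fold change lay within 0.22 of -1.04, the spread between libraries. Over all genes, 1708 were called, and 729 to 7439 when 1 library was left out. With library quality weights in limma 7327 were called, and with the GC and length correction 4889. Correlations of deviations from the group mean lay between -0.03 and -0.02 for same-numbered libraries and between -0.04 and 0.07 for the others. Scramble deviations hold the shift of scramble replicate 3, so these values cannot decide whether title numbers pair the libraries. With the replicate block 8 of the 10 and 1654 genes were called, and DDIT4 was not. Totals of 10229890 to 10647587 estimated counts per library limit the precision of low genes such as NUPR1 and DDIT4L.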
